A study of Homo sapiens with 15 samples.

Results

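The transcripts of 10 genes of the BCL2 family were followed in MDA-MB-231, a human line of breast cancer cells with mesenchymal features, after treatment with ZJ-101, a simpler synthetic relative of superstolide A, a compound from a marine sponge. The genes were chosen by symbol from the 59608 genes of the table: the anti-apoptotic MCL1 and BCL2L1, the effectors BAX and BAK1, and the BH3-only genes BCL2L11, BBC3, BID, PMAIP1, BAD and BIK. Membership is by symbol alone, and all 10 passed the filter of a mean of at least 10 normalized counts. Cells in 2D culture received 0.1% DMSO as the vehicle or ZJ-101 at 0.5, 5, 50 or 500 nM, and RNA was taken after 6 h from 3 dishes per group, 15 libraries in all. All dishes were of 1 cell line at 1 time, so every group shares its genotype, and no second line or later time stands beside them. The libraries hold transcripts and do not show protein or cell death.

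The BCL2 family decides whether the outer membrane of mitochondria stays closed. MCL1 and BCL-XL, the long product of BCL2L1, hold BAX and BAK1 in check, BAX and BAK1 open the membrane and release cytochrome c, and BH3-only proteins either block the anti-apoptotic proteins or activate the effectors directly. Several BH3-only genes are switched on by stress: BBC3 encodes PUMA and PMAIP1 encodes NOXA, both known as genes that cell stress induces, and NOXA binds MCL1 with preference and promotes its loss. MCL1 protein and transcript are both short-lived. Much of the family's regulation lies in protein stability, phosphorylation and cleavage, which transcript counts do not show.

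The values are normalized counts, which are reads per gene divided by a size factor for the library. A library held 12415519 to 15284762 reads on genes, and size factors lay from 0.916 to 1.13. Chi-square per degree of freedom between replicates of a group was 2.04 to 16.6, and the 2 highest values both belonged to 0.5 nM replicate 2, so results that this library changes are given without it. The line was checked by markers: all 6 genes listed for MDA-MB-231 were tested, with means from 692 (S100A4) to 14566 (VIM). Of the 7 luminal markers listed, 6 were tested too, with means up to 1211 (ERBB2), above that of S100A4. Only the estrogen receptor gene ESR1, which luminal breast cells use, was under the filter, with a mean of 0.744. The 2 lists thus overlapped in level only through ERBB2. In DMSO the next luminal marker, EPCAM, had a mean of 293, beside 804 for S100A4. At 500 nM, 1 of the 6 MDA-MB-231 genes rose and 2 fell, where 17.8% of all tested genes did either. The summed level of those 6 genes lay between 48452 and 49301 in DMSO and between 46837 and 47222 at 500 nM. The summed level of the 7 luminal markers lay between 1863 and 1929 in DMSO, between 1685 and 1769 at 0.5 nM and between 1757 and 1862 at 500 nM. The part of these shifts in the results was not tested. In bulk RNA, fewer cells with a transcript and less transcript per cell cannot be told apart.

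Under DMSO, the family covered a wide range of levels. Per kilobase of the canonical transcript, BCL2L1 stood highest with 1870 ± 42.1 normalized counts (SD, n = 3), followed by PMAIP1 with 1632 ± 58.3, BAX with 1578 ± 109 and MCL1 with 1128 ± 3.82. PMAIP1 and BAX overlapped between libraries, whereas BCL2L1 lay above both and MCL1 below both in every DMSO library. The middle of the order held BID at 493 ± 18.1, BAK1 at 365 ± 11 and BAD at 176 ± 16.2, with no overlap between neighbours. BBC3 at 66.5 ± 13.1 and BIK at 61.1 ± 12 overlapped, and BCL2L11 was lowest at 36.4 ± 2.16. Thus both anti-apoptotic genes and the effector BAX were among the 4 most abundant transcripts, and of the BH3-only genes PMAIP1 alone stood with them.

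The first comparison asked which members differed from DMSO at each dose. By limma with Benjamini-Hochberg adjustment over the 13561 tested genes, 1 of 10 members passed the threshold of 0.05 at 0.5 nM, where 1.17% of all tested genes did, and 1 of 10 at 5 nM, where 2.18% did. Both calls were a higher level of MCL1, a direction that 0.251% of tested genes took at 0.5 nM and 0.465% at 5 nM. At 50 nM none passed, where 6% of tested genes did. At that dose 1 member was higher and 2 were lower at an unadjusted p under 0.05, edgeR called 0, and DESeq2 called 1 lower, which was BBC3. Without 0.5 nM replicate 2, limma called 2 at 50 nM, BBC3 and PMAIP1. At 500 nM, 4 of 10 passed, where 17.8% of tested genes did: MCL1 and BCL2L1 rose and PMAIP1 and BBC3 fell. Of all tested genes, 7.69% rose and 10.1% fell at this dose. The median log2 fold change of the 10 members was -0.10, beside 0.00 for all tested genes. The 4 dose comparisons share the DMSO libraries and are not independent of each other.

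**Figure D1:**
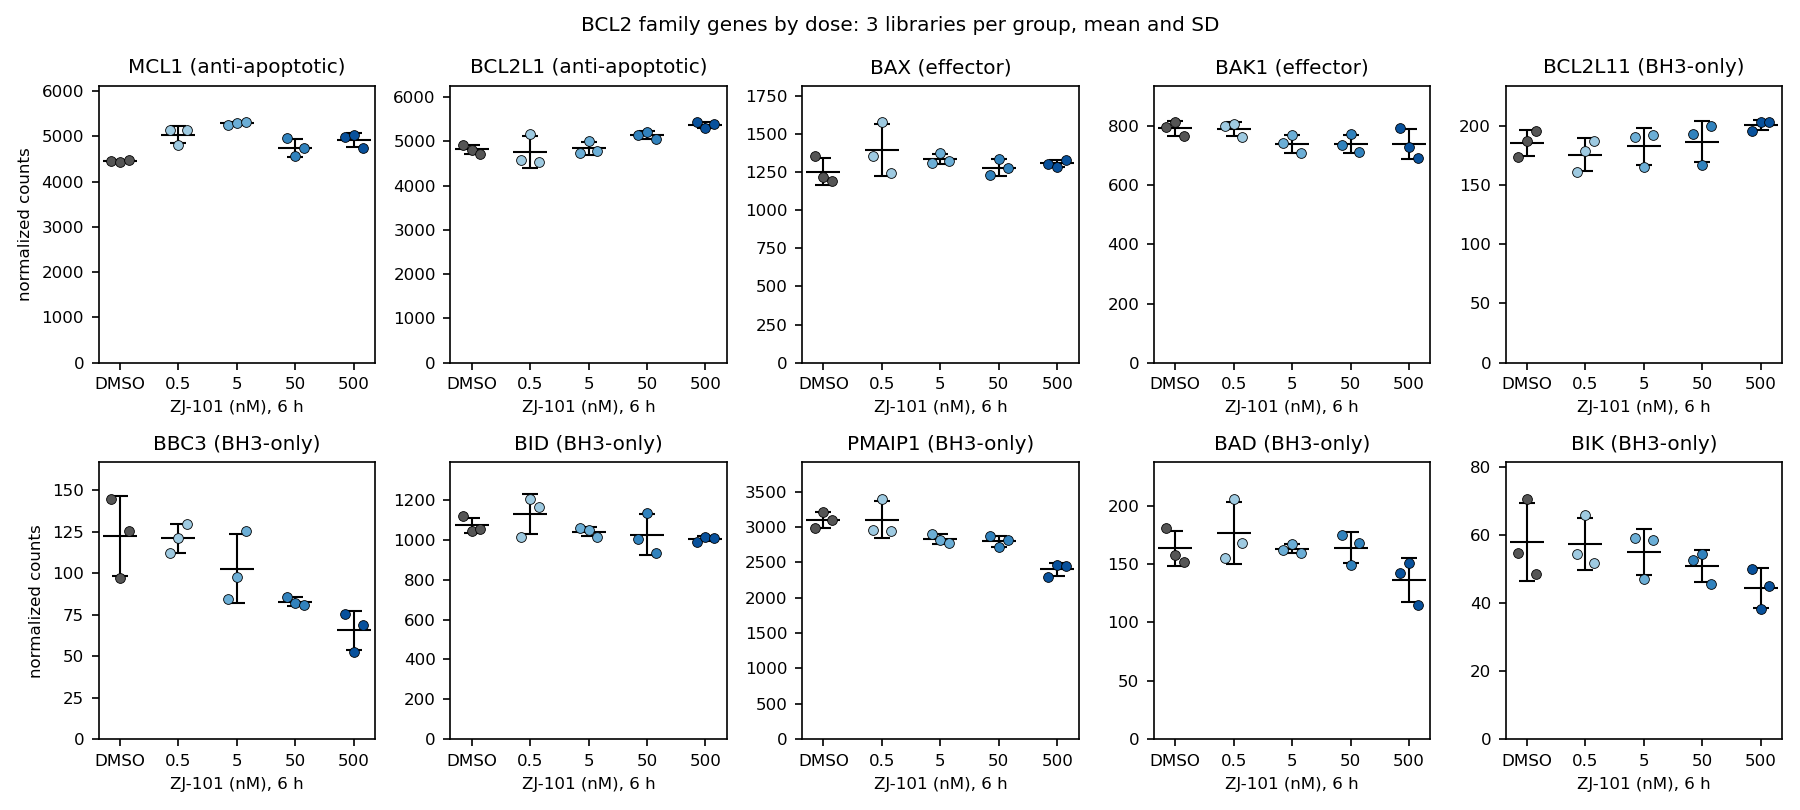
Normalized counts of the 10 genes (vertical axes, each from 0) in DMSO and at 0.5, 5, 50 and 500 nM ZJ-101 after 6 h (horizontal axes). Points are the 3 libraries of a group, horizontal bars the mean and whiskers the SD. All 500 nM points of PMAIP1 and BBC3 lie under all DMSO points, and all treated points of MCL1 lie above its DMSO points.

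BBC3, the gene of PUMA, showed the largest log2 fold change of the 10 members at 500 nM. It had 145, 97.1 and 126 normalized counts in the DMSO libraries, 112, 121 and 130 at 0.5 nM, and 84.8, 98.0 and 126 at 5 nM. At 50 nM it had 86.0, 81.9 and 80.8, and at 500 nM 75.4, 52.6 and 68.9. The 3 libraries at 50 nM and the 3 at 500 nM lay under all DMSO libraries, while those at 0.5 and 5 nM overlapped them. At 500 nM the mean was 0.535 of DMSO, with a log2 fold change of -0.89 ± 0.17 (SE, 95% interval -1.24 to -0.54, adjusted p = 0.000746, limma). At 50 nM the log2 fold change was -0.54 with an adjusted p of 0.0615 by limma. Without DMSO replicate 2, 0.5 nM replicate 2, 5 nM replicate 3 or 500 nM replicate 2, that adjusted p became 0.0239, 0.0445, 0.0467 or 0.0454. In the other 11 of 15 fits that left out a library it did not pass, with an adjusted p of up to 0.271.

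PMAIP1, the gene of NOXA, fell at the highest dose with a small spread. Its DMSO libraries had 2988, 3209 and 3103 normalized counts and its 0.5 nM libraries 2959, 3401 and 2945. The values were 2905, 2816 and 2775 at 5 nM, 2869, 2716 and 2810 at 50 nM, and 2293, 2461 and 2453 at 500 nM. From 5 nM on, every treated library lay under every DMSO library, and the 500 nM libraries lay under all others. At 500 nM the mean was 0.775 of DMSO, with a log2 fold change of -0.37 ± 0.053 (SE, 95% interval -0.48 to -0.26, adjusted p = 5.41e-05, limma), the smallest p of the 10 members. At 5 and 50 nM the log2 fold changes were -0.13 and -0.15, with adjusted p of 0.280 and 0.123 by limma. Without 0.5 nM replicate 2 the adjusted p at 50 nM was 0.0199.

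The sequences before the starts of these genes are shown because both are BH3-only genes that fell at 500 nM and because their base composition is so unlike. They are the 250 bases upstream of the RefSeq start, 5′ to 3′ on the gene's strand (GRCh38.p14), and capitals mark an AP-1 match. Part of the BBC3 window lies inside the gene as GENCODE draws it.
BBC3 promoter, chr19:47232668-47232917, minus strand: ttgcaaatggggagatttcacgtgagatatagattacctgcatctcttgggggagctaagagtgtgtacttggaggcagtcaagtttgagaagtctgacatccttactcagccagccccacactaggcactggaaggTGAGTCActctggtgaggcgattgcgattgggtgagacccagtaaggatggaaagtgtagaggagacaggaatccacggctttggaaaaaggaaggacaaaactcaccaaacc
PMAIP1 promoter, chr18:59899746-59899995, plus strand: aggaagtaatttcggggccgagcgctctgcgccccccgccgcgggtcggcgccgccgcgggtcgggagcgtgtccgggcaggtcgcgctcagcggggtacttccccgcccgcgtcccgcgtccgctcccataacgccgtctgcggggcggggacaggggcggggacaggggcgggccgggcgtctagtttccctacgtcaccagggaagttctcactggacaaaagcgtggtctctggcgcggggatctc
The BBC3 window held 49.2% G and C and 4 CpG dinucleotides, and the PMAIP1 window 72.8% and 36, where the median of such windows was 58%. Both strands were searched for heat-shock elements (GAANNTTC or TTCNNGAA), the CARE element of ATF4 (TGATGNAA) and the AP-1 element (TGANTCA), which 5.78%, 6.62%, 3.14% and 6.57% of 35116 windows hold. BBC3 held 1 match to the AP-1 letters, TGAGTCA, starting at position -113, and the PMAIP1 window held none of the 4. Among the 8 members with a window, the other matches were GAAACTTC in BAK1 at position -226 and TTCCAGAA in BID at position -97. Neither of these genes passed the test at any dose. BID, BCL2L1 and BAD have more than 1 window each, and the BID match lies in only 1 of its windows. A match is a run of letters, not evidence that a factor binds there.

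The calls for the anti-apoptotic genes MCL1 and BCL2L1 against DMSO were all upward, and at 500 nM their log2 fold changes were smaller in size than those of BBC3 and PMAIP1. MCL1 had 4449, 4442 and 4471 normalized counts in DMSO, 5147, 4812 and 5145 at 0.5 nM, and 5257, 5282 and 5313 at 5 nM. At 50 nM it had 4953, 4554 and 4740, and at 500 nM 4979, 5028 and 4748. All 12 treated libraries lay above the 3 DMSO libraries, which differed little among themselves. The log2 fold change was 0.25 ± 0.041 at 5 nM (SE, 95% interval 0.16 to 0.33, adjusted p = 0.0033, limma), a mean 1.19 times that of DMSO, and this call held under all 26 alternatives. It was 0.18 at 0.5 nM (adjusted p = 0.0459), 0.09 at 50 nM (adjusted p = 0.252) and 0.14 at 500 nM (adjusted p = 0.0212) in the same limma fit. The order of MCL1 levels therefore did not follow the order of the doses. The call at 0.5 nM held in 3 of 15 fits that left out a library, those without 0.5 nM replicate 2 or 50 nM replicate 1 or 2, and the highest adjusted p of the others was 0.171. At 500 nM the call was lost without any 1 of the DMSO replicates or 500 nM replicates 1 or 2, with an adjusted p of up to 0.0929.

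BCL2L1, whose main product is BCL-XL, rose at the highest dose. Its values were 4924, 4810 and 4707 normalized counts in DMSO, 4567, 5166 and 4538 at 0.5 nM, and 4742, 4996 and 4773 at 5 nM. They were 5140, 5220 and 5042 at 50 nM and 5433, 5295 and 5385 at 500 nM. The libraries at 50 and 500 nM lay above those of DMSO, and the 500 nM libraries lay above all others. At 500 nM the mean was 1.12 times that of DMSO, with a log2 fold change of 0.16 ± 0.046 (SE, 95% interval 0.06 to 0.26, adjusted p = 0.0227, limma). The call was lost when DMSO replicate 2 or 3, or 500 nM replicate 1 or 3, was left out, with an adjusted p of up to 0.0925. In GENCODE release 44, 41.3% of the exon bases of BCL2L1 lie inside ABALON, a gene on the opposite strand, and whether the counting used strand is not given in the sources used here. ABALON itself had a mean of 100 normalized counts in DMSO and 114 at 500 nM, under BCL2L1. These counts do not show how many BCL2L1 reads the overlap affected.

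**Figure D2:**
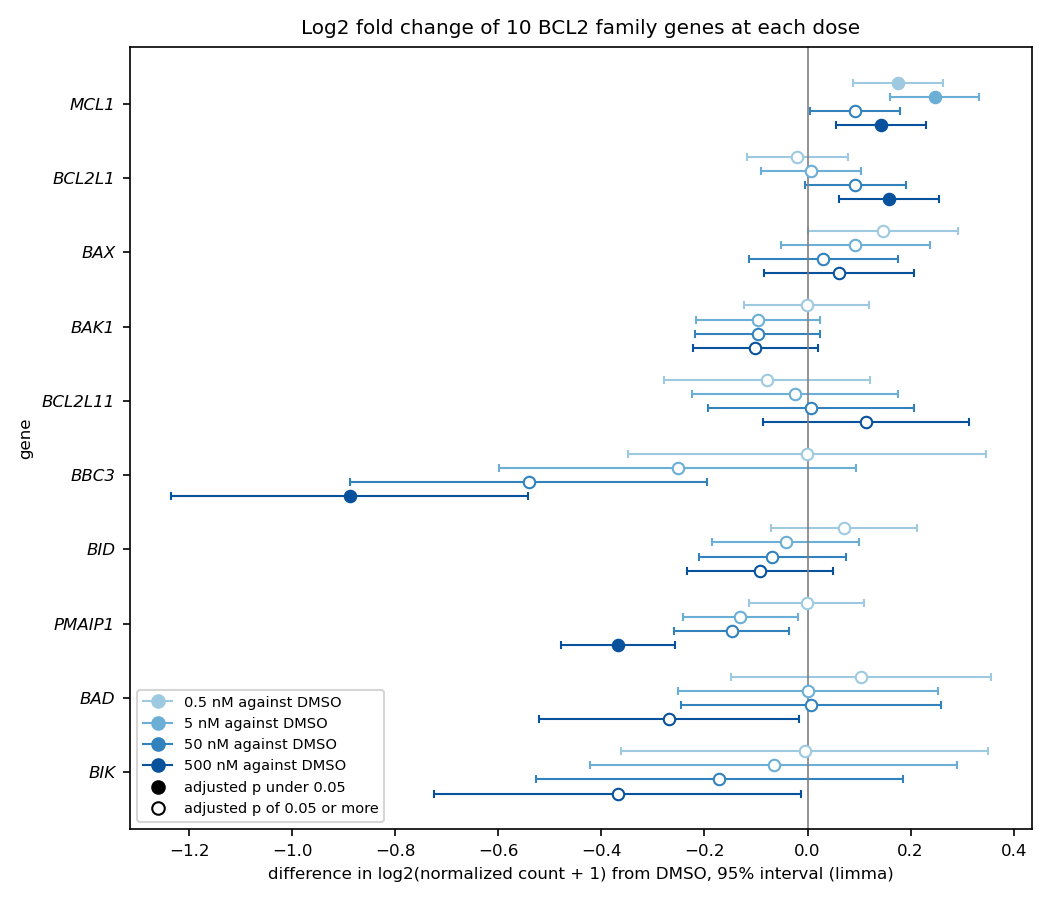
Difference in log2(normalized count + 1) from DMSO (horizontal axis) for each gene and dose, with 95% intervals from limma. Filled points passed an adjusted p of 0.05 and open points did not. BBC3 reaches -0.89 and PMAIP1 -0.37 at 500 nM, while the filled points of MCL1 and BCL2L1 lie between 0.14 and 0.25.

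The effectors BAX and BAK1, the proteins that form the pores, did not pass the test at any dose. BAX had 1353, 1219 and 1191 normalized counts in DMSO and 1306, 1284 and 1332 at 500 nM. Its log2 fold change at 500 nM was 0.06 (95% interval -0.08 to 0.21, adjusted p = 0.616, limma). BAK1 had 797, 814 and 767 in DMSO and 795, 730 and 694 at 500 nM, with a log2 fold change of -0.10 (95% interval -0.22 to 0.02, adjusted p = 0.261, limma). For both, the groups overlapped, and these intervals leave room for changes as large as that of BCL2L1 in at least 1 direction. The processed pseudogene BAK1P1 matches 29.3% of the BAK1 transcript at 98.3% identity, so some BAK1 reads may be shared with it.

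The other 4 BH3-only genes were not called at any dose either. BCL2L11, the gene of BIM, had 174, 187 and 196 normalized counts in DMSO and 196, 203 and 203 at 500 nM, with a log2 fold change of 0.11 (95% interval -0.09 to 0.31, adjusted p = 0.481, limma). BID, whose protein links death receptors to mitochondria once it is cleaved, had 1118, 1045 and 1055 in DMSO and 992, 1014 and 1011 at 500 nM, with a log2 fold change of -0.09 (95% interval -0.23 to 0.05, adjusted p = 0.408, limma). BCL2L11 overlapped DMSO between the groups, and the BID libraries at 500 nM all lay under those of DMSO by a small margin. BAD, a sensitizer held inactive by phosphorylation, had 181, 158 and 152 in DMSO and 143, 151 and 115 at 500 nM. BIK, a BH3-only protein of the endoplasmic reticulum, had 54.8, 70.8 and 48.7 in DMSO and 49.9, 38.4 and 45.0 at 500 nM. Their log2 fold changes were -0.27 for BAD (95% interval -0.52 to -0.02) and -0.37 for BIK (95% interval -0.73 to -0.01), with adjusted p of 0.140 and 0.155 by limma. The BAD libraries did not overlap those of DMSO and the BIK libraries did. BIK, with the fewest reads of the members at 500 nM, also had the widest interval. Counting libraries alone, 1, 2, 4 and 6 of 10 members did not overlap DMSO at 0.5, 5, 50 and 500 nM, where 18.1%, 23.2%, 24.8% and 38.5% of all tested genes did not. BAD shares 23.7% of its exon bases with GPR137 on the opposite strand, and BCL2L11 10.8% with MIR4435-2HG. GPR137 had means of 844 normalized counts in DMSO and 888 at 500 nM, above BAD. MIR4435-2HG had means of 949 and 903, above BCL2L11. The part of these overlaps in the counts was not tested.

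The comparison of neighbouring doses asked at which step the members moved. From 0.5 to 5 nM none passed, where 0.118% of tested genes did, and 1 member was lower at an unadjusted p under 0.05, while edgeR and DESeq2 called 0. From 5 to 50 nM, 1 of 10 passed, where 5.01% of tested genes did: MCL1 fell by 0.15 on the log2 scale (adjusted p = 0.0357, limma), as 2.39% of tested genes fell. The 3 libraries at 50 nM lay under the 3 at 5 nM. This call was lost without any 1 of the DMSO replicates, any 1 of the 5 nM replicates, or 50 nM replicate 2 or 3, with an adjusted p of up to 0.127. From 50 to 500 nM, 1 of 10 passed, where 2.28% did. PMAIP1 fell by 0.22 (adjusted p = 0.0326, limma), as 1.8% of tested genes fell. This call was lost without any 1 of the 50 nM or 500 nM replicates, with an adjusted p of up to 0.165. Between 50 nM and DMSO the difference was -0.15, and the 2 differences were not tested against each other. BBC3 differed by -0.25, -0.29 and -0.35 over the 3 steps in turn, none of which passed.

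Across the whole dose series, coded as ranks from 0 for DMSO to 4 for 500 nM, 3 of 10 members had a slope past the threshold, where 17.6% of tested genes did, 8.23% upward and 9.33% downward. BBC3 changed by -0.23 ± 0.038 per rank on the log2 scale (SE, adjusted p = 0.000162), PMAIP1 by -0.09 ± 0.014 (adjusted p = 0.000131) and BCL2L1 by 0.04 ± 0.011 (adjusted p = 0.0108), all by limma. These slopes and the falls of BBC3 and PMAIP1 at 500 nM held under all 26 alternatives. MCL1 had a slope of 0.02 per rank (adjusted p = 0.418, limma). BAK1, BAD and BIK had slopes of -0.03, -0.06 and -0.09 per rank, each with an unadjusted p under 0.05 and adjusted p of 0.121, 0.142 and 0.0943 by limma. Leaving out 500 nM replicate 1 brought BAK1 to an adjusted p of 0.0435, and leaving out DMSO replicate 3 brought BIK to 0.0402.

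**Figure D3:**
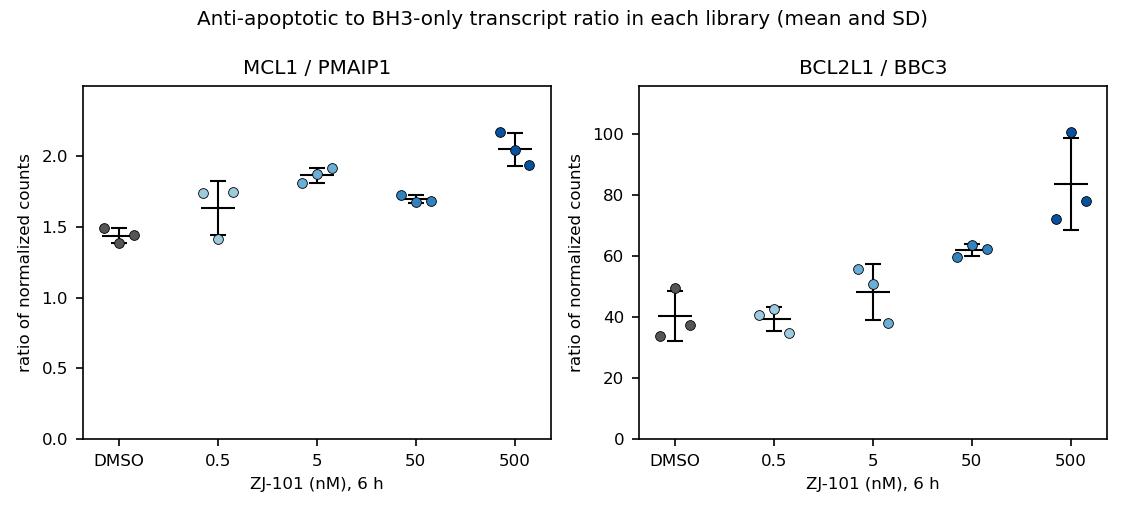
Ratio of normalized counts within each library, MCL1 to PMAIP1 on the left and BCL2L1 to BBC3 on the right (vertical axes from 0), by dose of ZJ-101 in nM at 6 h (horizontal axes). Points are libraries, horizontal bars means and whiskers SD. The 500 nM libraries lie above all DMSO libraries in both panels. This had to follow, as each numerator lies above DMSO and each denominator under it at 500 nM.

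PMAIP1 and MCL1 proteins are partners, and their transcripts were also set against each other within each library. The ratio of MCL1 to PMAIP1 was 1.49, 1.38 and 1.44 in DMSO, 1.74, 1.41 and 1.75 at 0.5 nM, and 1.81, 1.88 and 1.91 at 5 nM. It was 1.73, 1.68 and 1.69 at 50 nM and 2.17, 2.04 and 1.94 at 500 nM. The ratio of BCL2L1 to BBC3 had a mean of 40.3 ± 8.19 (SD, n = 3) in DMSO and 83.6 ± 15.1 at 500 nM. Both pairs were chosen after their values were seen, so the ratios are a description with no test, and a ratio of transcripts between genes of different length is not a ratio of molecules.

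The other genes of the apoptosis pathway were counted by list at 500 nM, where 17.8% of all tested genes were called, and several of the counts lie at or under that share. Of 10 other BCL2 family genes tested, 1 rose and 2 fell. BCL2, another anti-apoptotic gene, rose by 0.32 ± 0.089 on the log2 scale (SE, adjusted p = 0.018, limma), from 213, 191 and 194 normalized counts to 260, 244 and 241. BNIP3L and BNIP3, mitophagy receptors known to be induced by hypoxia, fell by 0.40 (adjusted p = 1.72e-05) and 0.32 (adjusted p = 0.000218, limma). The call for BCL2 was lost when DMSO replicate 2, DMSO replicate 3 or 500 nM replicate 1 was left out. Among 6 genes listed as caspase inhibitors, 2 fell and 0 rose. BIRC3 fell by 0.76 ± 0.054 (SE, adjusted p = 7.56e-09, limma) and BIRC2 by 0.33 ± 0.043 (SE, adjusted p = 2.05e-05, limma). Both encode ubiquitin ligases of TNF receptor signaling. BIRC3 had 1669, 1736 and 1821 normalized counts in DMSO, 1338, 1271 and 1311 at 50 nM, and 960, 1086 and 1042 at 500 nM. Its fall also passed at 50 nM, by 0.41 (adjusted p = 4.57e-05, limma).

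Of 14 caspase and apoptosome genes, 1 fell and 0 rose. It was ENDOG, a mitochondrial nuclease, which fell by 0.74 (adjusted p = 0.00515, limma). Of 11 death receptor and adaptor genes, 2 rose and 0 fell. These were the TRAIL receptors TNFRSF10A and TNFRSF10B, with log2 fold changes of 0.41 (adjusted p = 5.02e-05) and 0.25 (adjusted p = 0.0044, limma). TNFRSF10A had 590, 560 and 564 normalized counts in DMSO and 787, 754 and 745 at 500 nM. Of 13 mitochondrial partners, 2 rose: PPIF, cyclophilin D of the permeability transition, by 0.19 (adjusted p = 0.0181), and MFN2, a mitofusin, by 0.15 (adjusted p = 0.0363, limma). PPIF lost its call when DMSO replicate 3 or 500 nM replicate 1 was left out, and MFN2 when DMSO replicate 1, DMSO replicate 3 or any 1 of the 500 nM replicates was. None of 12 genes that regulate members at the protein level passed, with 1 lower at an unadjusted p under 0.05, 0 called by edgeR and 1 called lower by DESeq2. Thus at 500 nM no caspase transcript and no listed regulator of member proteins passed the test. At 50 nM against DMSO, 1 of the 14 caspase and apoptosome genes fell, where 6% of tested genes passed. It was not ENDOG (adjusted p = 0.833, limma). From 5 to 50 nM, 1 of the 14 and 1 of the 12 regulators fell, where 5.01% of tested genes passed.

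Among 14 genes listed as transcription factors that act on members, 2 rose and 4 fell at 500 nM. The list includes TRIB3, which is not itself a transcription factor. JUN, a subunit of AP-1, rose by 0.33 (adjusted p = 2.63e-05, limma) and also passed at 0.5, 5 and 50 nM, with log2 fold changes of 0.24, 0.31 and 0.23. It had 2509, 2412 and 2293 normalized counts in DMSO and 3108, 3055 and 2907 at 500 nM. MYC rose by 0.29 (adjusted p = 0.000169, limma). CEBPB fell by 0.72 (adjusted p = 1.07e-05), FOXO1, a factor known to induce BH3-only genes, by 0.45 (adjusted p = 0.00548), and HIF1A by 0.16 (adjusted p = 0.00516, limma). The remaining fall was that of E2F1, which is named because the count is small, after its value was seen. Its size, and whether the call held without single libraries, are not given here. Over the 7 lists, the median log2 fold change at 500 nM lay between -0.11 for the caspase inhibitors and 0.04 for the mitochondrial partners, beside 0.00 for all tested genes.

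**Figure D4:**
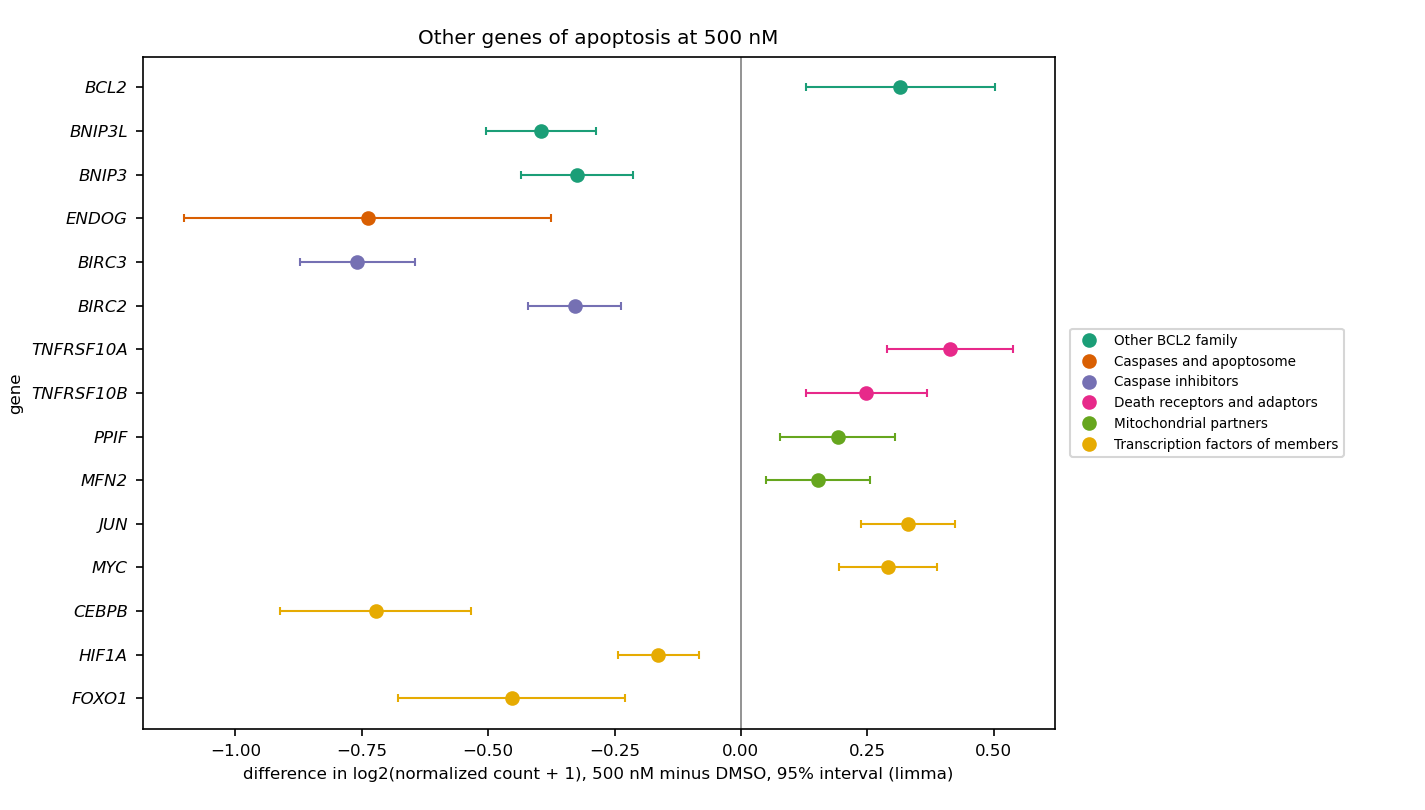
Difference in log2(normalized count + 1), 500 nM minus DMSO (horizontal axis), with 95% limma intervals, for the named genes of 6 pathway lists, colored by list. All of them passed an adjusted p of 0.05, which is how they were chosen, so the plot shows sizes and directions only. BIRC3 at -0.76, ENDOG at -0.74 and CEBPB at -0.72 lie farthest left and TNFRSF10A at 0.41 farthest right.

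The genes whose 4 log2 fold changes were closest to those of PMAIP1, by the root mean square difference over all tested genes, were NAB2 (0.0237), CADM4 (0.024) and SLC17A5 (0.0247). At 500 nM their log2 fold changes were -0.32, -0.38 and -0.35, and CADM4 did not pass the test there (adjusted p = 0.0958, limma). This likeness rests on 4 comparisons that share the DMSO libraries.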

How the data were processed

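Poly-A RNA of MDA-MB-231 cells was sequenced in 15 libraries. The authors used HISAT2 for alignment of the read pairs to hg38 and HTSeq for counting by gene, and each library was scaled by its DESeq2 size factor. The deposited signal values are these normalized counts, for 59608 genes. The strandedness is not given in the sources used here. A line without a gene was dropped (1 line). Whole reads came back for 100% of values within 0.001, for use in the count tests. The 24 h spheroid experiment was not analysed here.

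The main test was limma (3.58.1) on log2(normalized count + 1), eBayes with its mean-variance trend, for 13561 genes with a mean of at least 10, the 5 groups in 1 fit, Benjamini-Hochberg adjustment over all of them and a threshold of 0.05. Fold changes on this scale understate those of genes with few reads. Slopes on dose rank came from a separate fit. The dishes are biological replicates per the study's methods. The code was tested on simulated data. 1 listed gene, with the list of its targets, is not reported here. The members and gene lists were chosen with earlier results of these data known. All members are named, and from each list up to 3 rises and 3 falls with the smallest p at 500 nM.

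Positions, lengths and overlaps came from GENCODE release 44, and promoters from RefSeq (GRCh38.p14). These windows were found for 8 of the 10 members, not for MCL1 and BIK. The alternatives tried were a pseudocount of 0.5 or of 5, a filter at a mean of 50 or none, TMM scaling, the same total per library, the replicate block, the 6 libraries of a comparison alone, edgeR (4.0.16), DESeq2 (1.42.0), each library left out and, chosen after seeing the data, correction of each library for its dependence on transcript length and GC content.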

Additional observations from a re-analysis of the deposited data

How the results depend on the processing

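No direction of a call was reversed. With no filter on low genes, the members called were 0 at 0.5 nM and 2 at 500 nM, and 0 over each of the steps from 5 to 50 nM and from 50 to 500 nM. With the same total per library they were 0 at 0.5 nM and 0 from 5 to 50 nM. With the 6 libraries of a comparison alone they were 0 at 0.5 nM, 2 at 5 nM and 2 at 50 nM. DESeq2 called 1 at 50 nM, BBC3. Removal of the trend on length and GC content, chosen after seeing the data, also called 1 there, but it was PMAIP1. Leaving out 1 library gave 0 to 1 at 0.5 nM, 1 to 1 at 5 nM, 0 to 2 at 50 nM, 2 to 4 at 500 nM, 0 to 1 over the step from 5 to 50 nM, 0 to 1 over that from 50 to 500 nM, and 3 to 4 by the slope. The cause was not tested. To compare replicate numbers, each gene's group mean was first subtracted from its log2 values. These deviations correlated between -0.0855 and 0.0961 for same-numbered libraries of different groups. For pairs of different groups with other numbers they correlated between -0.13 and 0.123. By these deviations, 7 of 15 libraries correlated best, on average, with libraries of their own number in other groups. Whether same-numbered dishes shared handling is not given in the labels. The replicate block gave 1 call at 50 nM, BBC3 (adjusted p = 0.0469, limma), and changed no other count. BIK and BBC3 had the fewest normalized counts of the 10 at 500 nM, and the part of depth in their spread was not tested.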
